A study of Homo sapiens with 4 samples.

Results

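The genes described here encode 10 subunits of Polycomb repressive complex 2 (PRC2), chosen by name out of 18377 genes measured, in MOLM-14 cells given DZNep or its solvent. The core subunits were EZH2, EZH1, EED, SUZ12, RBBP4 and RBBP7, and the accessory subunits JARID2, AEBP2, MTF2 and PHF19. All 10 were found, each on 1 probe set that the platform annotation pairs with that gene alone. MOLM-14 is an established cell line of human acute myeloid leukemia, of monocytic type. The groups were 2 samples given DZNep at 2 µM and 2 samples given DMSO, all taken at 24 h and hybridised to 4 Affymetrix whole-transcript arrays. DZNep (3-deazaneplanocin A) inhibits S-adenosylhomocysteine hydrolase and is used to lower the EZH2 protein and the methyl mark that EZH2 makes. The titles call the samples of each group biological replicates of this 1 line without naming separate cultures, so every p-value reflects the spread among these samples alone, and that spread may be technical. Transcripts were measured, not proteins or histone marks. In bulk RNA, fewer cells of a kind and less RNA per cell cannot be told apart.

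PRC2 places methyl groups on lysine 27 of histone H3 (the H3K27 mark), which keeps developmental genes silent. EZH2 or its paralogue EZH1 carries the catalytic SET domain, which works only when bound to EED, the reader of the finished mark, and to SUZ12, the scaffold. RBBP4 and RBBP7 are closely related histone-binding proteins that several other chromatin complexes share. JARID2 and AEBP2 mark one form of the complex, and the Polycomb-like proteins MTF2, PHF19 and PHF1 mark the other. EZH2 is known as a gene of dividing cells under E2F control, while EZH1 is known to persist in resting cells.

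Start-site sequences are shown for the 3 subunits that passed the test and for the scaffold SUZ12, since EZH2 is a known E2F target. They come from RefSeq (GRCh38.p14), hold 250 bases before and 50 bases from the annotated start onward, and are given 5′ to 3′ on the gene's strand, the first entry where a gene has more than 1. Capitals mark the E2F words TTTCCCGC, TTTGGCGC, TTTCGCGC and TTTGCCGC and the CCAAT box, the binding sequence of NF-Y, on either strand. The EZH2 entry is chr7:148884242-148884541, SUZ12 is chr17:31936757-31937056, RBBP7 is chrX:16870313-16870612 and JARID2 is chr6:15245819-15246118, with EZH2 and RBBP7 on the minus strand and SUZ12 and JARID2 on the plus strand.
EZH2: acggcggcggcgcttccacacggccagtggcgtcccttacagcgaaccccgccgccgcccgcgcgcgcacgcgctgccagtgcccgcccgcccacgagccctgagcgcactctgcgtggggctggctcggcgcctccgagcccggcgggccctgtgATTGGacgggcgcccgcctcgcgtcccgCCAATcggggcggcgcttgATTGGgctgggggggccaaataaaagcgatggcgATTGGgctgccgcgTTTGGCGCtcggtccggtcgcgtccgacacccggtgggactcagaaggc
SUZ12: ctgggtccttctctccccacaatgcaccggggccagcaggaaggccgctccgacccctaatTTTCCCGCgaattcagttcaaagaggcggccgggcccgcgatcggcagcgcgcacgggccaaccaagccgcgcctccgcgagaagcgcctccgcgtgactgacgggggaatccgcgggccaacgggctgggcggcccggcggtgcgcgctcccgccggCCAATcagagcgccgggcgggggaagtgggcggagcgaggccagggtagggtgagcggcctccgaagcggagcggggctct
RBBP7: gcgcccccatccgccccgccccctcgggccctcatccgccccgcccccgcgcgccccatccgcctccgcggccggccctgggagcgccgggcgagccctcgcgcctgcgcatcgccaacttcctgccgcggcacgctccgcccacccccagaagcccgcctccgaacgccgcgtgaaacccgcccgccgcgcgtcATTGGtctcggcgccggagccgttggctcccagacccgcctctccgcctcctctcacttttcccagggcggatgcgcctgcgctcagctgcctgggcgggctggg
JARID2: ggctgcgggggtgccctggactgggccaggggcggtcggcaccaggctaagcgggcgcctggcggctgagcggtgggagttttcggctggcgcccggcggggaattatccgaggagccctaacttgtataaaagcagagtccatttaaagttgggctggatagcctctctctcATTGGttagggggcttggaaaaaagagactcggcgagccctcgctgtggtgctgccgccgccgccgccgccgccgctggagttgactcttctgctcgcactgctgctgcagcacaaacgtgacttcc
EZH2 held 1 E2F word, TTTGGCGC at bases 252 to 259 of the window, just past the start site, and 4 CCAAT boxes ahead of it, with no overlap between the motifs. SUZ12 held the E2F word TTTCCCGC at bases 62 to 69 and 1 CCAAT box. RBBP7 and JARID2 held 1 CCAAT box each and none of the E2F words in these windows. Over all 15 entries of the 10 genes, 6 entries, of EZH2, EZH1, SUZ12, AEBP2, MTF2 and PHF19, held an E2F word. Among all 35116 entries 3.31% held one, and among 45 entries of a list of DNA replication genes 44.4% did. Of the 6 subunits with an E2F word, only EZH2 passed the test given below. SUZ12 and MTF2 also had log2 fold changes below 0, while EZH1, AEBP2 and PHF19 had values above 0. A CCAAT box lay in 10 of the 15 entries, from 7 of the 10 genes, and in 34.6% of all entries. The windows of the RBBP4 entries overlap, so a box that they share was counted in each. The cell cycle homology region TTTGAA, bound by the MuvB complex, lay in 1 of the 15 entries, that of SUZ12 on the other strand, and in 15.2% of all entries. A match of letters is a description of the window and not a binding site.

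With DZNep, the catalytic subunit EZH2 fell to 59.1% of its DMSO intensity, RBBP7 fell by less, and JARID2 rose. The other 7 subunits, EZH1, EED, SUZ12, RBBP4, AEBP2, MTF2 and PHF19, did not pass the test. The comparison asks which subunit transcripts differ between DZNep and DMSO. The test was limma's moderated test on log2 intensity over all 18377 genes, with Benjamini-Hochberg adjustment and a threshold of 0.05. It called 3 of the 10 subunits (30.0%), against 10.3% of all genes. In the lower direction it called 2 subunits, against 6.68% of all genes, and in the higher direction 1, against 3.62% of all genes. DZNep and DMSO arrays did not overlap for 8 subunits, 3 higher and 5 lower, while they did not overlap for 49.7% of all genes (25.9% higher and 23.9% lower). The median log2 fold change was −0.30 over the core subunits and 0.04 over the accessory subunits, against 0.02 over all genes.

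**Figure D1:**
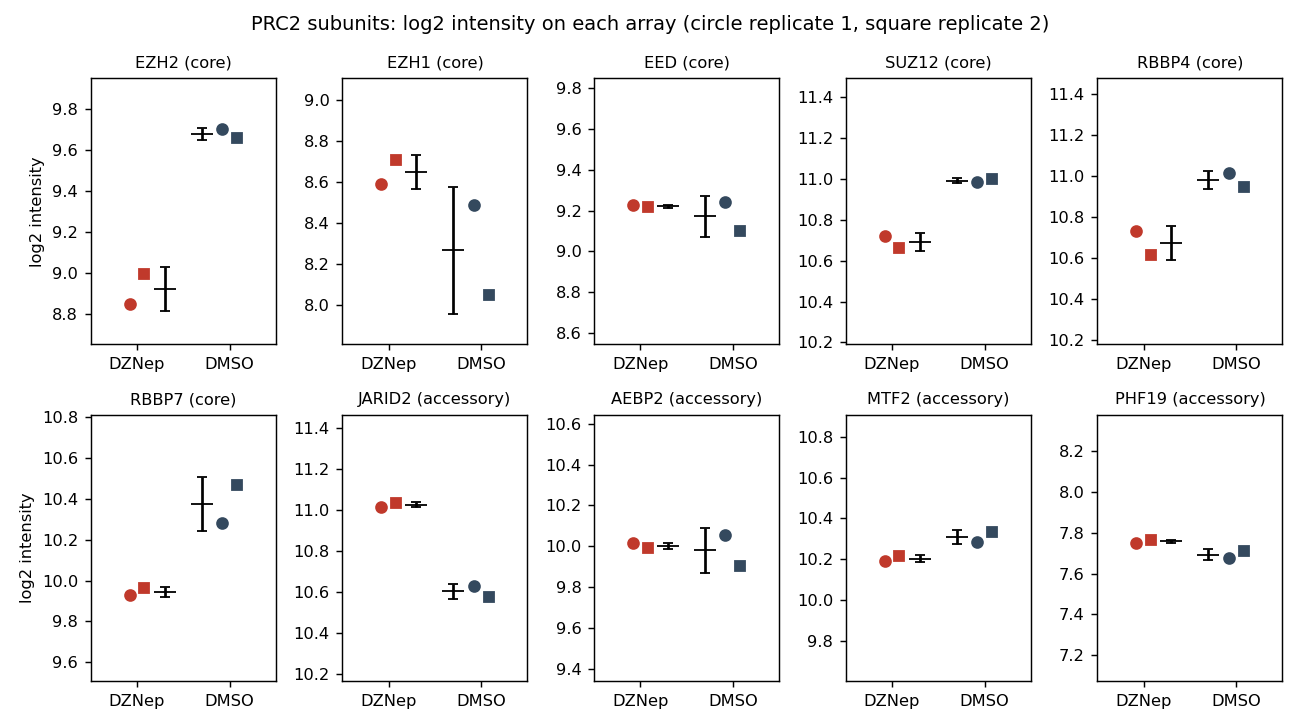
Log2 intensity (y axis) of the 10 subunits on each array, DZNep in red and DMSO in dark blue, with the group mean and SD beside the points; every panel spans the same log2 range. EZH2 lay at 8.85 and 8.996 on the DZNep arrays, below 9.70 and 9.66 on the DMSO arrays, while EED and AEBP2 overlapped between the groups.

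EZH2 and EZH1 are the alternative catalytic subunits. The EZH2 gene lies on chromosome 7 (148807383 to 148884291, RefSeq GRCh38.p14). EZH2 had log2 intensities of 8.85 and 8.996 on the DZNep arrays, against 9.70 and 9.66 on the DMSO arrays. On the linear scale the deposited intensities were 460.4 and 511 with DZNep and 833 and 809 with DMSO. Both DZNep arrays lay well below both DMSO arrays, and the gap between the groups was larger than the gap between the DZNep arrays, 0.15. The means were 8.92 ± 0.11 with DZNep and 9.68 ± 0.03 with DMSO (SD, n = 2 arrays each), a log2 fold change of −0.76 (limma, SE 0.10, 95% interval −0.98 to −0.54, adjusted p = 0.0016). That is 1.69-fold lower, and 1.58% of all genes had a lower log2 fold change. EZH2 was called under each of the 14 alternative settings tried, with log2 fold changes of −0.83 to −0.68.

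EZH1 had log2 intensities of 8.59 and 8.71 with DZNep, against 8.49 and 8.05 with DMSO. The DZNep arrays lay above the DMSO arrays, but the DMSO arrays differed by 0.44, a gap larger than that of 97.3% of all genes. Its log2 fold change was 0.38 (limma, SE 0.14, 95% interval 0.06 to 0.70, adjusted p = 0.137). Leaving out DMSO replicate 2 gave 0.16, while leaving out DMSO replicate 1 gave 0.60, which passed (limma adjusted p = 0.0176). The size of the EZH1 difference thus moved with the DMSO array used.

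Within each array the log2 difference EZH2 minus EZH1 was 0.26 and 0.29 with DZNep, against 1.22 and 1.61 with DMSO. The difference was lower by 1.14 with DZNep (a change of −1.14 on the log2 scale), with no overlap between the groups. An exact permutation test over arrays (two-sided) gave p = 0.333, the smallest that 2 arrays against 2 allow, and 0.444 after adjustment over the 4 pairs compared. These differences compare changes, since the brightness of different probe sets does not rank the genes' levels.

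EED and SUZ12 complete the catalytic unit. EED had log2 intensities of 9.23 and 9.22 with DZNep, against 9.24 and 9.10 with DMSO. The DZNep arrays lay between the DMSO arrays, and the log2 fold change was 0.05 (limma, 95% interval −0.17 to 0.27, adjusted p = 0.842). Its sign turned, to −0.022, without DMSO replicate 2. A fall in EED of the size seen for EZH2 lies outside that interval. SUZ12 had log2 intensities of 10.72 and 10.66 with DZNep, against 10.98 and 10.999 with DMSO. The groups did not overlap, and 6.99% of all genes had a smaller gap between the DMSO arrays. The log2 fold change was −0.30 (limma, SE 0.09, 95% interval −0.51 to −0.09), and the adjusted p of 0.0789 missed the threshold. It passed with an intensity trend in the variance (limma adjusted p = 0.00705).

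RBBP4 had log2 intensities of 10.73 and 10.62 with DZNep, against 11.01 and 10.95 with DMSO, and the groups did not overlap. Its log2 fold change was −0.31 (limma, SE 0.10, 95% interval −0.53 to −0.09, adjusted p = 0.0836), which passed with an intensity trend (limma adjusted p = 0.00845). RBBP7, on the X chromosome (16844341 to 16870362), had log2 intensities of 9.93 and 9.96 with DZNep, against 10.28 and 10.47 with DMSO. Both DZNep arrays lay below both DMSO arrays, and the DMSO arrays were the more spread. The means were 9.95 ± 0.02 with DZNep and 10.37 ± 0.13 with DMSO (SD, n = 2 arrays each), a log2 fold change of −0.43 (limma, SE 0.10, 95% interval −0.66 to −0.20, adjusted p = 0.0294), or 1.34-fold lower. The RBBP7 call was lost without DZNep replicate 1 (−0.41, limma adjusted p = 0.163), DZNep replicate 2 (−0.44, 0.11) or DMSO replicate 2 (−0.33, 0.0595). It was also lost under quantile (limma adjusted p = 0.0557) and cyclic loess (0.0584) normalization and with 16 subtracted from each intensity (0.0702).

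That RBBP7 passed the test and RBBP4 missed it does not show that they differ. The log2 difference RBBP4 minus RBBP7 was 0.80 and 0.65 with DZNep, against 0.73 and 0.48 with DMSO. The groups overlapped, with a change of 0.12 (exact permutation test over arrays, two-sided, p = 0.667, and 0.667 adjusted over the 4 pairs), which turned to −0.0051 without DMSO replicate 2.

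**Figure D2:**
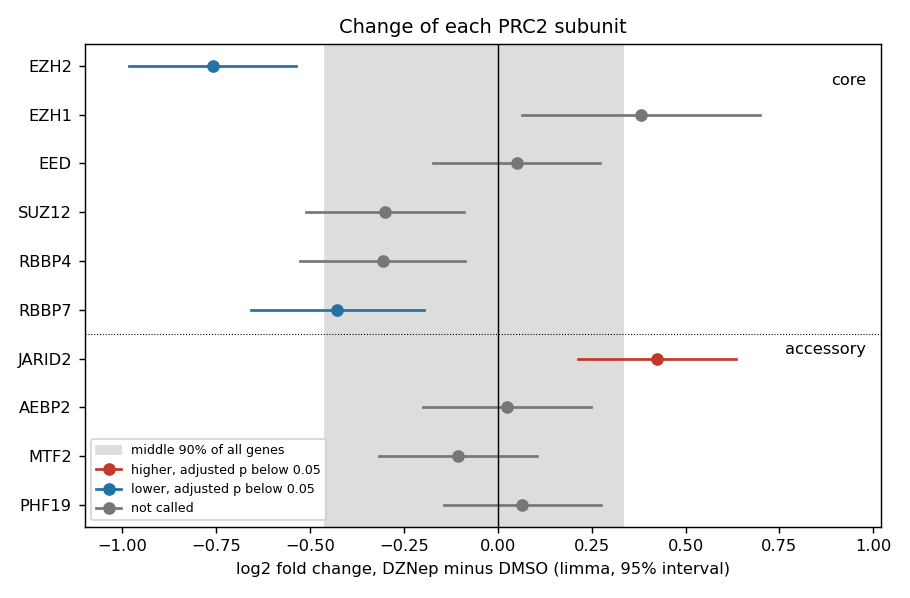
Log2 fold change of each subunit, DZNep minus DMSO, with its 95% interval from limma (x axis), core subunits above the dotted line and accessory ones below; the grey band runs from the 5th to the 95th percentile of all genes, −0.46 to 0.33. EZH2 lies left of the band, JARID2 and EZH1 right of it, and the intervals of EED, AEBP2, MTF2 and PHF19 span 0.

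JARID2 and AEBP2 are partners in the same form of PRC2, in which JARID2 helps bring the complex to chromatin and stimulates its activity. The JARID2 gene lies on chromosome 6 (15246069 to 15522042). JARID2 had log2 intensities of 11.02 and 11.04 with DZNep, against 10.63 and 10.58 with DMSO. Deposited intensities were 2072 and 2099 with DZNep and 1583 and 1528 with DMSO, and the replicates of each group lay close together. The means were 11.03 ± 0.01 with DZNep and 10.60 ± 0.04 with DMSO (SD, n = 2 arrays each), a log2 fold change of 0.42 (limma, SE 0.09, 95% interval 0.21 to 0.63, adjusted p = 0.0201), or 1.34-fold higher. The direction held in each of the 14 alternatives (0.39 to 0.50). The call was lost without DZNep replicate 1 (0.43, limma adjusted p = 0.126) or DZNep replicate 2 (0.41, 0.16), where 1 array stands for the group, and with 16 subtracted (0.43, 0.0549).

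AEBP2, a zinc finger protein that contacts SUZ12, had log2 intensities of 10.01 and 9.99 with DZNep, against 10.06 and 9.90 with DMSO. The groups overlapped, and the log2 fold change was 0.02 (limma, 95% interval −0.20 to 0.25, adjusted p = 0.935), with a turned sign of −0.0086 under median centring and −0.053 without DMSO replicate 2. The log2 difference JARID2 minus AEBP2 was 1.003 and 1.04 with DZNep, against 0.57 and 0.67 with DMSO. The change was 0.40, with no overlap between the groups (exact permutation test over arrays, two-sided, p = 0.333, the smallest possible, and 0.444 adjusted over the 4 pairs).

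MTF2 and PHF19 are Polycomb-like proteins that help anchor the other form of PRC2 on DNA. MTF2 had log2 intensities of 10.19 and 10.21 with DZNep, against 10.28 and 10.33 with DMSO. The groups did not overlap, yet the log2 fold change was only −0.11 (limma, 95% interval −0.32 to 0.10, adjusted p = 0.605). PHF19 had log2 intensities of 7.75 and 7.76 with DZNep, against 7.67 and 7.71 with DMSO. Its arrays did not overlap either, with a log2 fold change of 0.06 (limma, 95% interval −0.14 to 0.27, adjusted p = 0.774). The difference MTF2 minus PHF19 was 2.44 and 2.45 with DZNep, against 2.61 and 2.62 with DMSO, a change of −0.17 (exact permutation test over arrays, two-sided, p = 0.333, the smallest possible, and 0.444 adjusted over the 4 pairs). PHF19 was the dimmest subunit, at intensities of 204 to 217, against a lowest value on each array of 18.1 to 18.5. KRT8 (198 to 282) and COL1A1 (200 to 243), listed below as markers of other cell types, spanned similar intensities. The rest of that list, PECAM1 apart, was dimmer. How much of the PHF19 signal was specific was not tested.

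Core and accessory subunits differed in their mean change. The mean log2 intensity of the 6 core subunits minus that of the 4 accessory subunits was −0.07 and −0.06 with DZNep, against 0.29 and 0.24 with DMSO. The change was −0.33, and leaving out any 1 array gave −0.35 to −0.30. The core mean changed by −0.23 and the accessory mean by 0.10. Among the accessory subunits only JARID2 was called, at 0.42, while AEBP2, PHF19 and MTF2 stood at 0.02, 0.06 and −0.11. The accessory value is thus mostly that of JARID2, and the contrast was not computed without it. With EZH2 left out of the core, the difference was 0.10 and 0.08 with DZNep, against 0.34 and 0.28 with DMSO, a change of −0.22. The subunits were chosen with results of these data known, so no p is given for these means. The contrast does not cover every member, since EZH1 and EED in the core had log2 fold changes above 0 and MTF2 among the accessory subunits had one below 0.

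**Figure D3:**
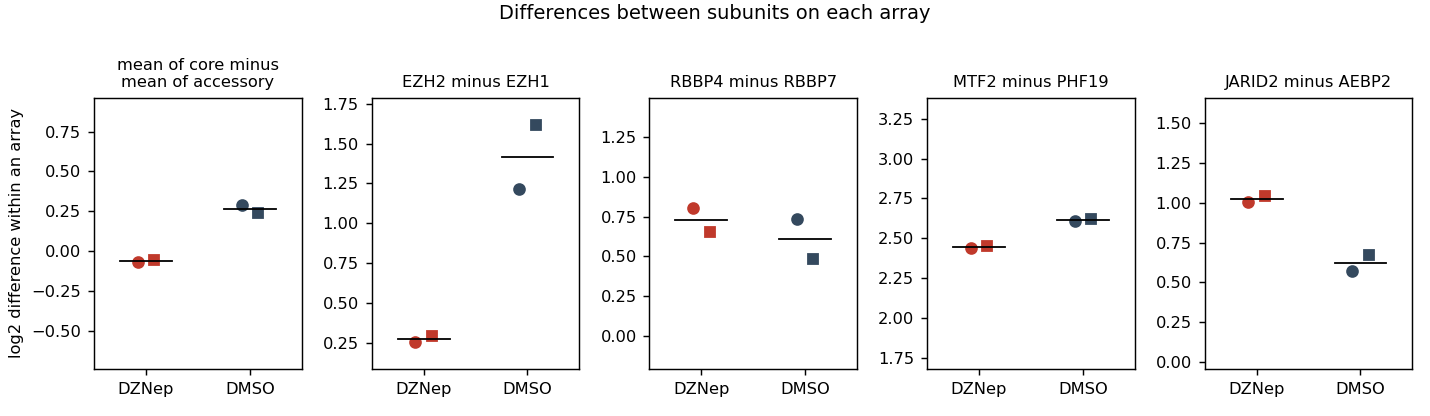
Log2 difference within an array (y axis) between the core and accessory means and within 4 pairs of related subunits, DZNep in red and DMSO in dark blue, circles for replicate 1, squares for replicate 2 and lines for group means; every panel spans the same log2 range. The EZH2 minus EZH1 difference lies at 0.26 and 0.29 with DZNep and at 1.22 and 1.61 with DMSO, while RBBP4 minus RBBP7 overlaps.

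**Figure D4:**
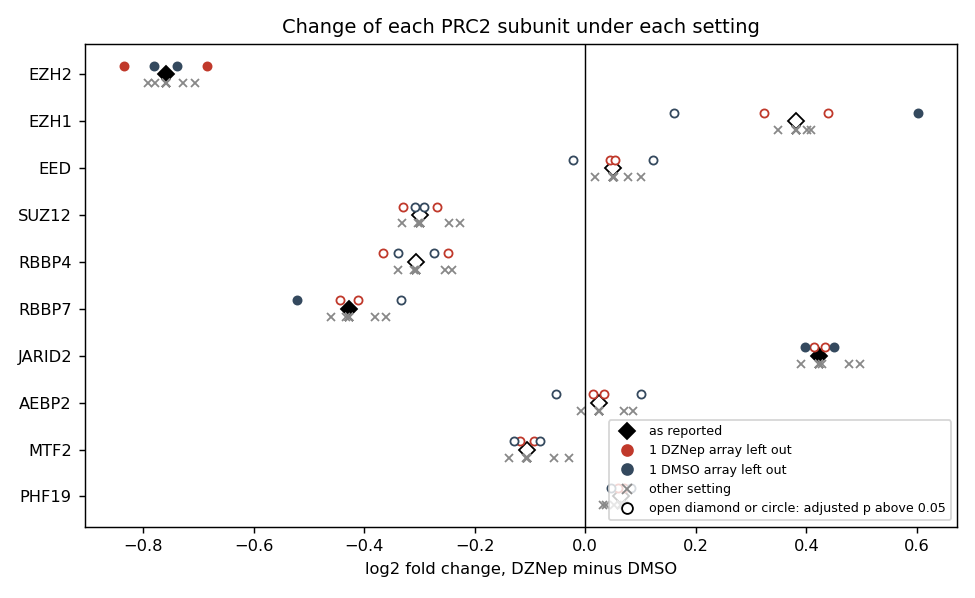
Log2 fold change of each subunit (x axis) as reported (diamonds), with 1 array left out (circles) and under the other settings (crosses). EZH2 keeps to −0.83 to −0.68, and EZH1 spreads from 0.16 to 0.60 with the DMSO array left out.

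Counts of related genes called are read against 3.62% of all genes called higher and 6.68% called lower. Among 5 further PRC2 partners (PHF1, EPOP, LCOR, LCORL and EZHIP) limma called none and none had an unadjusted p under 0.05, with log2 fold changes of −0.05 to 0.18. The largest was that of EPOP, an elongin-binding PRC2 partner, at 0.18 (limma adjusted p = 0.457). The demethylases that remove the H3K27 mark, KDM6A at 0.01 (limma adjusted p = 0.97) and KDM6B at −0.06 (0.803), were not called, had no unadjusted p under 0.05, and overlapped between DZNep and DMSO arrays. Of 20 genes listed for PRC1, a complex with forms that read the PRC2 mark, 16 were measured, RNF2 and BMI1 not among them. Of these 16, 1 fell and 15 were not called, with a median of 0.05. The 1 that fell was SCMH1, a sex-comb-on-midleg homologue, at −0.63 (limma adjusted p = 0.00951). Of 11 genes listed for the PR-DUB complex, which removes ubiquitin from histone H2A, 10 were measured, the deubiquitinase BAP1 not among them. Of these 10, 1 rose and 9 were not called, with a median of 0.00. It was MBD5 at 0.56 (limma adjusted p = 0.00799), a call lost without DZNep replicate 2 (0.48, 0.0698).

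RBBP4, RBBP7 or both also belong to NuRD, SIN3, CAF-1, NURF, HAT1 and MuvB complexes, so their values are not those of PRC2 alone. Of 13 NuRD genes, 3 fell and none rose, against 6.68% of all genes called lower and 3.62% called higher, with a median of −0.06. They were the deacetylase HDAC2 at −0.44, the metastasis-associated protein MTA1 at −0.45 and CDK2AP1 at −0.36. Their calls were fragile: none of the 3 was called without DZNep replicate 1, DZNep replicate 2 or DMSO replicate 1, or with 16 subtracted. CDK2AP1, called in 7 of 14 alternatives, was also lost without DMSO replicate 2 (limma adjusted p = 0.058) and under quantile normalization (0.0565). Of 11 SIN3 genes none was called by limma (2 had an unadjusted p under 0.05), with a median of 0.03, and the largest values were 0.27 for SAP30 (limma adjusted p = 0.217) and 0.25 for ING2 (0.194). Of 9 CAF-1, NURF, HAT1 and MuvB genes, 2 fell and 1 rose, with a median of −0.23. LIN9, a MuvB subunit, fell to 7.01 and 7.03 with DZNep, against 7.66 and 7.67 with DMSO (limma log2 fold change −0.65, adjusted p = 0.00257). The acetyltransferase HAT1, which RBBP7 accompanies, fell by 0.41 on the log2 scale (limma adjusted p = 0.0338), and its call was lost without either DZNep array (−0.42 and −0.40, limma adjusted p = 0.144 and 0.182) or DMSO replicate 2 (−0.32, 0.0675), under quantile (0.0691) and cyclic loess (0.0562) normalization, and with 16 subtracted (0.0761). BPTF, the large NURF subunit, rose by 0.44 (limma adjusted p = 0.0181), a call lost without DZNep replicate 1 (0.43, 0.139) or DZNep replicate 2 (0.45, 0.107).

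**Figure D5:**
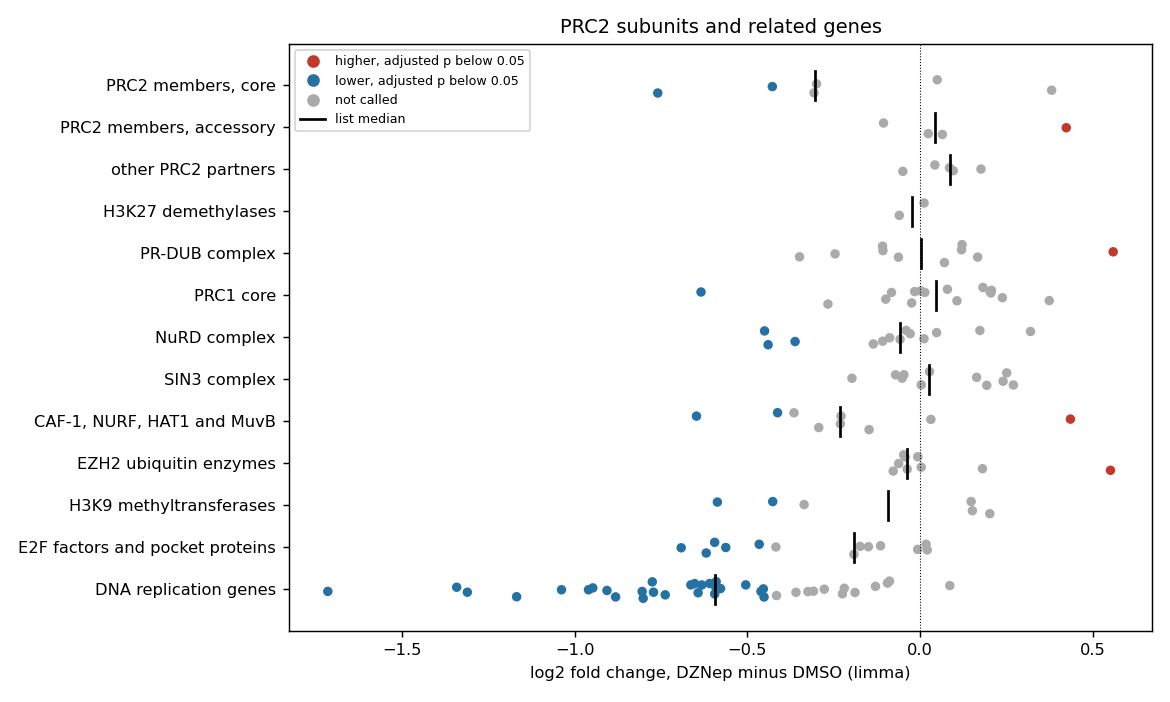
Log2 fold change (x axis, limma, DZNep minus DMSO) of each gene of the PRC2 subunits and of the related lists, 1 point per gene, with the list median as a black line; points are spread vertically only for legibility. DNA replication genes lie furthest left, with a median of −0.59, and the PRC2 core has a median of −0.30.

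Of 6 methyltransferases of histone H3 lysine 9, 2 fell and none rose, against 6.68% of all genes called lower and 3.62% called higher, with a median of −0.09. They were SETDB2 at −0.59 (limma adjusted p = 0.00498) and SUV39H2 at −0.43 (0.0301), the last call lost without DZNep replicate 2 (−0.34, 0.335) or DMSO replicate 2 (−0.38, 0.0678) or with 16 subtracted (−0.46, 0.0618). Of 9 ubiquitin ligases and deubiquitinases that have been tied to EZH2 protein turnover, 1 rose and 8 were not called (11.1% called, near the 10.3% of all genes), with a median of −0.04. The 1 that rose was the ligase TRIM21, at log2 intensities of 8.18 and 8.24 with DZNep, against 7.67 and 7.65 with DMSO (limma log2 fold change 0.55, adjusted p = 0.00607). AHCY, which encodes the hydrolase that DZNep inhibits, had log2 intensities of 9.43 and 9.49 with DZNep, against 10.04 and 9.73 with DMSO, with a limma adjusted p of 0.0505 as fitted and one under 0.05 in 9 of 14 alternatives, and its relative AHCYL1 fell by 0.63 on the log2 scale (0.00841). The third gene of this family, AHCYL2, had a log2 fold change of 0.29 and was not called (limma adjusted p = 0.0975).

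DNA replication genes, many of them known E2F targets like EZH2, were lower as well. The test called 27 of 39 lower and none higher (69.2%, against 6.68% of all genes called lower), with a median log2 fold change of −0.59, against 0.02 over all genes. CDC6, which licenses origins, stood at −1.71, PRIM1 of the primase at −1.34, CDC45 of the replicative helicase at −1.31 and RRM2, which helps make deoxynucleotides, at −1.17. The other 12 were not called, among them PCNA at −0.09 and FEN1 at 0.09 (limma adjusted p = 0.715 and 0.742). Of 13 E2F and pocket protein genes, 5 fell and none rose, with a median of −0.19. They were the E2F partner TFDP2 at −0.69, the repressor E2F7 at −0.62, the pocket protein RBL1 at −0.59, the repressor E2F8 at −0.56 and the activator E2F3 at −0.47. E2F3 lost its call in several alternatives, among them those without DZNep replicate 1 and with 16 subtracted. The activators E2F1 and E2F2 were not called, at 0.02 and −0.11 (limma adjusted p = 0.954 and 0.625). Without DZNep replicate 1, or with 16 subtracted, 3 genes of the list were called, and E2F8 was called in 9 of 14 alternatives, its call being lost in both of these, without DMSO replicate 2 (−0.35, limma adjusted p = 0.0721) and under quantile (0.0565) and cyclic loess (0.0517) normalization. The part of these cell cycle genes in the EZH2 value was not tested.

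The genes whose log2 values, centred on each gene's mean over the 4 arrays, lay nearest to EZH2 were STK39, a kinase of ion transport control, SLC22A4, a transporter of organic cations, POLR1E, a subunit of RNA polymerase I, KIF21B, a kinesin, and MNS1, a structural protein of cilia and sperm tails. Their root mean square distances to EZH2 were 0.01 to 0.03 on the log2 scale. Nearest to JARID2 were the small nucleolar RNA SNORA57, IQGAP2, QSOX1, BPTF and SPART, at distances of 0.004 to 0.02. With 4 arrays such likeness describes the size of the change and the replicate gaps and nothing more.

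Median log2 intensities over all probe sets were 7.07 and 7.05 with DZNep and 6.99 and 7.07 with DMSO. The SD over genes of the log2 difference between 2 arrays was 0.14 between the DZNep arrays, 0.20 between the DMSO arrays and 0.27 to 0.32 between a DZNep and a DMSO array. Of 10 myeloid line markers 30.0% were called, 2 higher and 1 lower, against 10.3% of all genes. LYZ rose by 0.53, a call lost without DZNep replicate 1 (0.48). CSF1R rose by 0.47, a call lost without DZNep replicate 1 (0.46) or DZNep replicate 2 (0.47). FLT3 fell by 0.94 on the log2 scale. The other 7 were not called and went both ways. CD68 stood at −0.38, MEIS1 at −0.27, ITGAM at −0.22 and MPO at −0.15, against SPI1 at 0.06, CD14 at 0.33 and CEBPA at 0.36. Of 12 markers of other cell types only PECAM1, which monocytes also express, was called, at 0.99, and no marker was listed at 0. The summed intensity of those 12 markers was 2884 and 2828 with DZNep and 1934 and 1999 with DMSO, and without PECAM1 it was 1206 and 1194 with DZNep and 1066 and 1201 with DMSO. Of these 12 markers, CD3E, MS4A1, ALB and EPCAM had intensities of 34.9 to 68.2 on all arrays. HBB had 64.5 to 73.3, CD3D 62.7 to 88.3, CD79A 97.1 to 109, COL1A2 107 to 127 and GFAP 123 to 144. COL1A1 at 200 to 243 and KRT8 at 198 to 282 were as bright as the myeloid marker CSF1R, at 181 to 254. The myeloid marker CD14 had 93.8 to 135, so intensity did not set the 2 lists apart gene by gene. The part of these markers in the values of the subunits was not tested.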

How the data were processed

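The deposited table gives 1 linear intensity per probe set and array, made by the authors with RMA (submitters' processing notes); its version is not given in the sources used here. It was put on the log2 scale here, with no pseudocount, no new normalization and no filter on dim genes. Each array's lowest intensity was 18.1 to 18.5, and whether a constant was added is unknown; one would shrink the folds of dim genes.

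Probe sets were named through the platform annotation. Of 28869, 19310 have 1 symbol, and of several for a gene the brightest was kept, which left 18377 genes. Groups and replicate numbers come from the sample titles. Limma 3.58.1 in R 4.3.3 tested group alone (lmFit and eBayes, two-sided, Benjamini-Hochberg over all genes, threshold 0.05), with 2 residual and 7.18 prior degrees of freedom, and was tested on simulated data. The number of arrays limits the precision. The members and lists were chosen with earlier results of these data known. The genes named are the 10 members, AHCY, and the 5 genes nearest to EZH2 and to JARID2. From each list they are up to 4 called genes with the largest change, or the 2 largest where none was called. Others were named after their values were seen: E2F1, E2F2, E2F3, AHCYL2, PCNA, FEN1, the listed further PRC2 partners and the cell type markers given by intensity or as not called. Listed genes with no probe set of their own symbol were not analysed here, and BAP1, RNF2 and BMI1 are named only as not measured.

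Alternatives were the replicate block, a filter on the dimmest 25% of genes, 3 normalizations, an intensity trend, array weights, 16 subtracted from each intensity, the mean over probe sets, and each array left out. A crossed replicate block was chosen after seeing the data.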

Additional observations from a re-analysis of the deposited data

How the results depend on the processing

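EZH2 was called lower in all 14 alternatives, and the log2 fold change of AEBP2 turned to −0.0086 under median centring. With 1 array left out, AEBP2 ran from −0.053 (without DMSO replicate 2) to 0.10, EED from −0.022 (without it) to 0.12, and RBBP4 minus RBBP7 from −0.0051 (without it) to 0.25. Subunits called lower numbered 2 as reported, 1 under quantile normalization, 1 under cyclic loess normalization, 1 with 16 subtracted and 4 with an intensity trend, where SUZ12 and RBBP4 joined. Subunits called higher numbered 1 as reported and 0 with 16 subtracted. They numbered 2 with the replicate block or the crossed replicate block, where EZH1 joined (limma adjusted p = 0.0371 and 0.0284). The NuRD gene CDK2AP1 lost its call with the replicate block (limma adjusted p = 0.0534). For these settings, all genes called are not counted here, apart from higher calls under the crossed block. The subunit counts thus stand without a background share. With 1 array left out, 0 to 2 subunits were called higher and 1 to 2 lower, all genes called numbered 336 to 776 higher and 734 to 1662 lower (665 and 1227 as reported), and 1 to 5 genes of the related lists were called higher (3 as reported). The lone array is then assumed to vary like the other group. The replicate numbers share no stated culture or day. Deviations of the replicate 1 arrays from their group means correlated at −0.22 between DZNep and DMSO over genes, so the samples are not taken as paired, and the crossed block called 1034 genes and 5 genes of the related lists higher. Each subunit has 1 probe set, so a test of its other probe sets could not be run. The causes of these differences between settings were not tested.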
